A study of Ovis aries with 95 samples.

Results

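YBX1, ODC1 and CSNK1E are 3 growth-related genes whose array signal in the fetal sheep brain was high at mid-gestation and lower near birth in all 4 regions studied. They were chosen by their measured levels over age on these same arrays, in which the drop toward birth stood out, so the levels by age are given as a description without a test, and tests were kept for differences between regions. The 3 genes were measured by 5 of the 15008 gene probes on the array and are 3 of its 14345 gene names. Across the regions the mean signal of YBX1 was 4.69-fold to 5.43-fold lower 1 d after birth than at 80 d of gestation, and 3.85-fold lower in the brainstem without 1 array that stood apart from the others. YBX1 reached its low level at different ages in different regions. At 120 d the arrays of the 4 regions did not overlap in the mean of its probes. The cortex was highest and the brainstem lowest.

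YBX1 encodes a Y-box protein with a cold-shock domain that binds DNA and RNA and packages mRNA into ribonucleoprotein particles, where it affects mRNA stability and translation. ODC1 encodes ornithine decarboxylase, a short-lived enzyme that makes putrescine and sets the rate of polyamine synthesis, and its activity is high in growing and dividing cells. CSNK1E encodes casein kinase 1 epsilon, which phosphorylates the PER proteins of the circadian clock and the Dishevelled proteins of Wnt signaling.

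The data were 95 arrays of total RNA from fetal sheep and newborn lambs, each with Cy3-labeled RNA of 1 brain region. The regions were the cortex (a section of frontal cortex, per the methods), the brainstem, the hippocampus and the hypothalamus. The fetal ages were 80, 100, 120, 130 and 145 d of gestation and the lambs were 1 d old. No animal was treated, and no ewe showed signs of labor. Each group of region and age had 4 arrays, except the hippocampus at 100 d with 3 arrays. The labels do not give breed, sex or the ewe. The methods give 1 set of twins in each age group and take all regions from the same fetuses, but the labels do not mark the animals, so the arrays were treated as independent and p-values measure the spread between these samples. In tissue samples such as these, fewer cells of a type and less RNA per cell cannot be told apart.

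The probe sequences are shown because every level in the text rests on them. The deposited array files give each as a 60-base oligonucleotide, all in lower case here. YBX1 had 2 probes made from the same sheep transcript record, named here the first and second probe:
YBX1, probe A_70_P051121: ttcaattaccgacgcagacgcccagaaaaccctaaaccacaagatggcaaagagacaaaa
YBX1, probe A_70_P051122: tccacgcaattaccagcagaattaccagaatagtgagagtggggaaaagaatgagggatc
ODC1 had 1 probe, so its level has no second probe to be set beside it:
ODC1, probe A_70_P058946: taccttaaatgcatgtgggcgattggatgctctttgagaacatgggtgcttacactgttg
CSNK1E had 1 probe with the gene symbol in the files (the symbol probe, listed first) and 1 named through its description only (the description probe):
CSNK1E, probe A_70_P061361: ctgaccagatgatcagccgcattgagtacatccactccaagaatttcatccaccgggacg
CSNK1E, probe A_70_P026621: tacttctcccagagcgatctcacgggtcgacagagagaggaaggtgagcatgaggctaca

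GC content was 45% in the YBX1 and ODC1 probes, 51.7% in the CSNK1E symbol probe and 55% in the description probe. No other gene probe of the array shared a run of 20 bases with any of them. CSNK1E has a close paralog, CSNK1D, and cross-hybridization with its transcript was not tested. No spot of these probes was saturated. The spots were well above background on all 95 arrays, except the CSNK1E symbol probe with 94 of 95. Levels are log2 intensities after background correction and quantile normalization over all arrays, so 1 unit is a doubling. Brightness also depends on the probe, so levels were compared between samples and never between genes. A gene's level is the mean of its probes.

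There were 6 arrays that stood apart from the others. Their median correlation with the other arrays of their region lay between 0.819 and 0.877, while for all other arrays it was 0.931 or more. They were 5 hippocampus arrays on 1 slide (100 d replicate 3, 120 d replicate 4, 130 d replicate 3, 145 d replicate 4 and 1 d after birth replicate 3) and the brainstem array 1 d after birth replicate 4. A further 2 hippocampus arrays (130 d replicate 1 and 145 d replicate 1) correlated at 0.937 and 0.944 but lay on the same side of the first principal component as those 5. Of the gene probes, 59.5% to 72.3% were well above background on the 5 arrays and 72.2% to 85.1% on the other hippocampus arrays. The main results that rest on these arrays are also given without the 6 arrays.

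Some tissue markers followed the labels and others did not. HOXA5, a hindbrain transcription factor, averaged 9.84 in the brainstem and 6.4 to 6.45 elsewhere, and the neuropeptide OXT averaged 10.92 in the hypothalamus and 7.82 to 8.66 elsewhere. The neuropeptides NPY and SST, also on the hypothalamus list, averaged 11.23 and 13.28 there but 12.52 and 14.35 in the cortex and 12.52 and 14.53 in the hippocampus. NEUROD1, the 1 measured marker of cortex and hippocampus, averaged 11.13 and 11.45 in these and 9.30 and 8.42 in the brainstem and hypothalamus, but at 80 d it was 12.72 in the brainstem and 11.74 in the cortex. The pituitary hormone subunit CGA reached 9.51 in the hypothalamus against 6.43 to 6.46 elsewhere. In the brainstem the choroid plexus gene TTR averaged 16.81, against 11.03 to 12.93 elsewhere, and the pituitary hormone PRL 9.12, against 6.68 to 7.17. The other measured choroid plexus marker, AQP1, averaged 6.57 in the brainstem and 6.52 to 6.59 elsewhere. Of the other pituitary markers, FSHB averaged 6.44 in the brainstem and 6.78 in the hypothalamus, against 6.44 in the cortex and 6.47 in the hippocampus. LHB averaged 10.18, 9.70, 9.80 and 9.84 in that order. The part of neighbouring tissue such as choroid plexus and pituitary in the region differences was not tested. None of the 11 neuron markers chosen for this check (0 of 11) had a named probe. Between 59.5% and 88.5% of gene probes were well above background on an array.

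**Figure D1:**
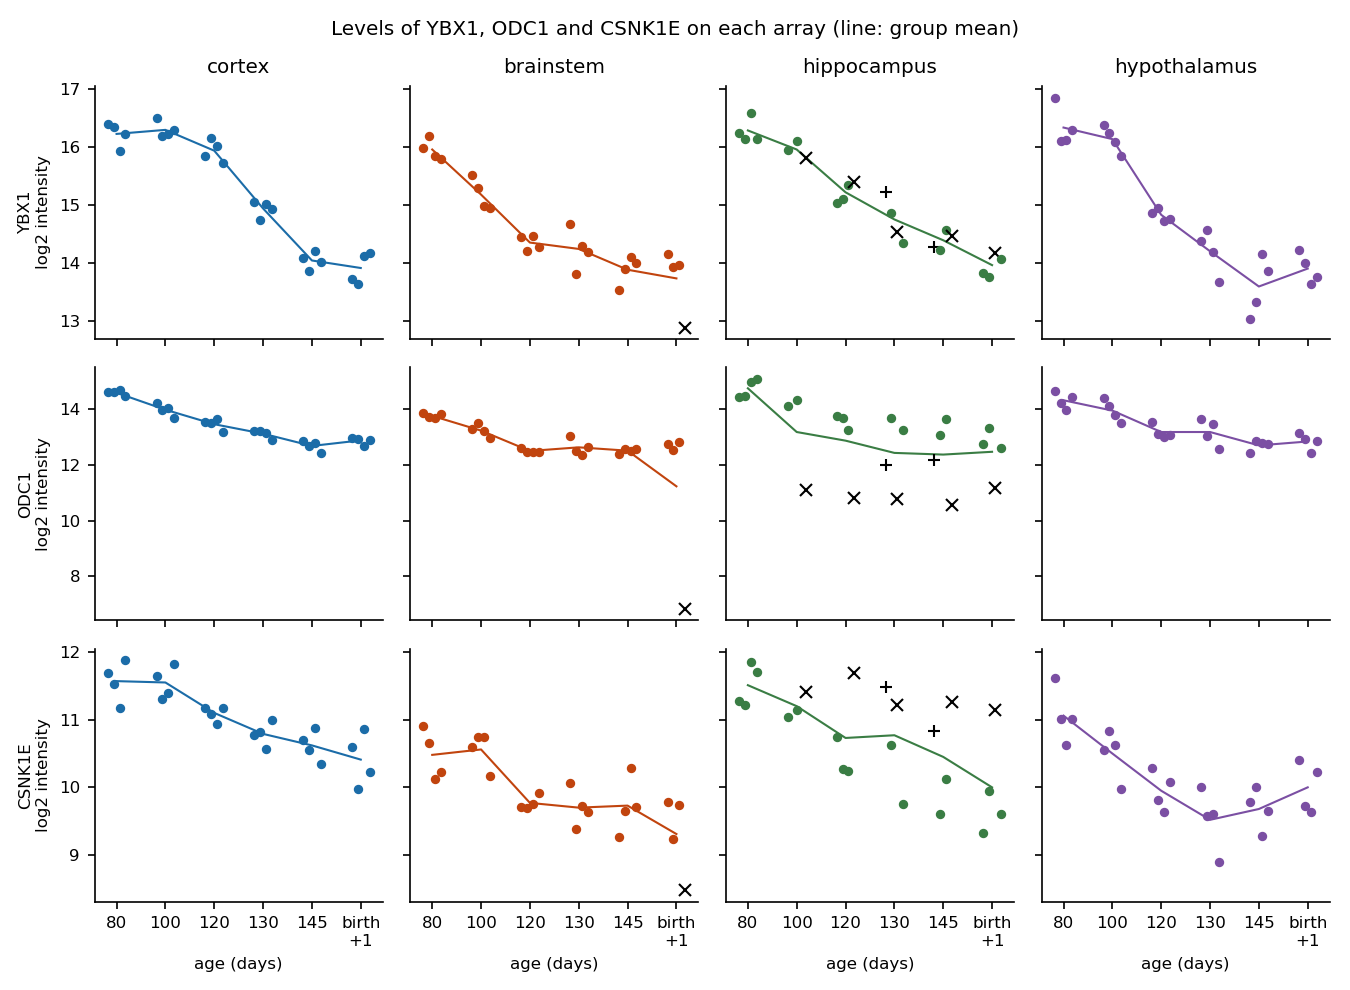
Level of YBX1, ODC1 and CSNK1E (log2 intensity, y axis, a different range for each gene) on each array against age (x axis: days of gestation, then 1 d after birth) in the 4 regions, with a line through the group means. Crosses mark the 6 arrays with a correlation under 0.9 and plus signs the 2 further hippocampus arrays. The levels were highest at 80 or 100 d in every region and gene, and the brainstem cross for ODC1 lies at 6.83.

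In the cortex the YBX1 signal was still high at 120 d. In the cortex, YBX1 levels on single arrays were 16.41, 16.35, 15.94 and 16.22 at 80 d, 16.50, 16.20, 16.22 and 16.29 at 100 d, and 15.84, 16.16, 16.02 and 15.72 at 120 d. Later they were 15.06, 14.74, 15.02 and 14.93 at 130 d, 14.09, 13.86, 14.20 and 14.02 at 145 d, and 13.72, 13.64, 14.12 and 14.17 1 d after birth. The means ± SD from 80 d to 1 d after birth were 16.23 ± 0.21, 16.30 ± 0.14, 15.94 ± 0.19, 14.94 ± 0.14, 14.04 ± 0.14 and 13.91 ± 0.27 (n = 4 each). The 80 and 100 d arrays overlapped, the 130 d arrays lay below all earlier ones, the 145 d arrays lay below all of 130 d, and those of 145 d and the newborn overlapped. The newborn mean was 4.99-fold lower than the 80 d mean.

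In the brainstem YBX1 was lower much earlier. The brainstem YBX1 levels were 15.99, 16.19, 15.85 and 15.80 at 80 d, 15.52, 15.30, 14.98 and 14.94 at 100 d, and 14.44, 14.21, 14.47 and 14.27 at 120 d. At the later ages they were 14.67, 13.81, 14.29 and 14.18 at 130 d, 13.53, 13.90, 14.10 and 14 at 145 d, and 14.15, 13.93, 13.96 and 12.88 1 d after birth. The means ± SD were 15.96 ± 0.18, 15.18 ± 0.28, 14.35 ± 0.13, 14.24 ± 0.35, 13.88 ± 0.25 and 13.73 ± 0.58 (n = 4 each). The 80 d arrays lay above all 100 d arrays and these above all 120 d arrays, and from 120 d on each age overlapped the next. The lowest value, 12.88, came from the newborn array that stood apart. Relative to each probe's group median, spots around the YBX1 probes there had medians 0.26 and 0.38 below the median of that whole array. Without it the newborn mean was 14.02 ± 0.12 (SD, n = 3), and the fold below 80 d was 3.85 instead of 4.69.

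In the hippocampus, YBX1 levels were 16.24, 16.14, 16.60 and 16.15 at 80 d, 15.96, 16.10 and 15.82 at 100 d, and 15.03, 15.10, 15.35 and 15.40 at 120 d. Their later levels were 15.23, 14.87, 14.54 and 14.35 at 130 d, 14.28, 14.23, 14.56 and 14.47 at 145 d, and 13.83, 13.76, 14.17 and 14.07 1 d after birth. Group means ± SD were 16.29 ± 0.22, 15.96 ± 0.14, 15.22 ± 0.18, 14.75 ± 0.39, 14.39 ± 0.16 and 13.96 ± 0.20 (n = 4, or 3 at 100 d). The arrays of 80, 100 and 120 d formed 3 separate steps, those of 120, 130 and 145 d overlapped from one age to the next, and all newborn arrays lay below all 145 d arrays. The newborn mean was 5.01-fold below 80 d with all arrays and 5.26-fold below it without the 6 arrays. On the 7 hippocampus arrays named above, YBX1 differed from the other arrays of its group by between -0.21 and 0.62. On the 5 of them with a low correlation the first probe was higher by 0.24 to 0.91 and the second differed by -0.73 to -0.05.

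In the hypothalamus, YBX1 levels were 16.86, 16.10, 16.12 and 16.29 at 80 d, 16.38, 16.24, 16.09 and 15.84 at 100 d, and 14.87, 14.95, 14.73 and 14.76 at 120 d. The later hypothalamus levels were 14.37, 14.57, 14.19 and 13.67 at 130 d, 13.03, 13.33, 14.16 and 13.86 at 145 d, and 14.22, 13.99, 13.64 and 13.75 1 d after birth. Their means ± SD were 16.34 ± 0.36, 16.14 ± 0.23, 14.83 ± 0.10, 14.20 ± 0.39, 13.59 ± 0.51 and 13.90 ± 0.26 (n = 4 each). The second probe was left out as an outlier spot on 130 d replicate 3 and newborn replicate 1, so these values rest on the first probe after centering each probe. The 80 and 100 d arrays overlapped, all 120 d arrays lay below them, and all 130 d arrays lay below those of 120 d. The newborn mean was 5.43-fold below 80 d, and 145 d was lowest at 6.72-fold below it, with arrays that overlapped the newborn arrays.

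The timing of YBX1 differed between regions. By 120 d the cortex mean had covered 12.8% of the log2 distance between 80 d and the newborn, the hippocampus 45.9%, the hypothalamus 62% and the brainstem 72.3%. These shares without the 6 arrays were 47% in the hippocampus and 82.9% in the brainstem. In the region-by-age F test of limma over all 95 arrays, the adjusted p of YBX1 was 0.000184. Of all genes tested, 7.78% passed that test. The adjusted p was 5.39e-06 without the 6 arrays, 7.65e-05 with slide as a random block, 5.08e-05 by the first probe alone and 0.0415 by the second probe alone.

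In the main fit the regions started and ended at levels that the tests did not tell apart. At 80 d the F test over regions gave YBX1 an adjusted p of 0.398, where 24.1% of genes passed, and 1 d after birth it gave 0.757, where 27.8% passed (limma). The 95% intervals of the pairwise differences at 80 d reached from -0.77 to 0.66, so differences of that size were within the error. By the scanner's processed signal, cortex minus brainstem at 80 d was 0.80 and passed (adjusted p = 0.0292), against 0.27 (0.422) in the main fit. Quantile normalization within each region made the F test pass at 80 d (1.93e-05) and in the newborn (3.62e-05). This setting also moved the median of all genes between regions. Between 80 d and birth the regions differed. The F test passed at 100 d (adjusted p = 2.44e-05, with 21.9% of genes passing), at 120 d (9.01e-09, 23.7%), at 130 d (0.00247, 32.7%) and at 145 d (0.00763, 34%). The 145 d call was lost with the scanner's processed signal (0.0689) and without hypothalamus replicate 1 (0.058). At 100 d the brainstem arrays lay below all arrays of the other 3 regions.

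At 120 d the order was complete in the mean of the YBX1 probes. This mean lay between 15.72 and 16.16 on the cortex arrays, 15.03 and 15.40 in the hippocampus, 14.73 and 14.95 in the hypothalamus, and 14.21 and 14.47 in the brainstem. On hippocampus replicate 4, which stood apart, the first probe read 16.78 and the second 14.02. The other hippocampus arrays of 120 d lay from 15.52 to 16.24 and from 14.35 to 14.54. The order was therefore not shown for each probe alone. At 145 d the hippocampus lay above the other regions on every array. Its difference from the hypothalamus was 0.79 (SE 0.20, 1.73-fold, limma adjusted p = 0.00355), in a comparison where 13.8% of genes passed in either direction. Without hypothalamus replicate 1 this difference was 0.61 and the adjusted p 0.057. By the second probe alone the 145 d F test gave 0.379.

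Markers of myelin-forming cells ran in the opposite order at 120 d. The mean level of the 3 measured of 9 oligodendrocyte markers (TF, CX32 and CRYAB) was 13.92 in the brainstem (arrays from 13.78 to 14.04), 12.62 in the hypothalamus (12.21 to 12.93), 11.54 in the hippocampus (10.21 to 12.49) and 9.92 in the cortex (9.09 to 10.62). At 100 d it was 12.53, 9.92, 9.14 and 8.23 in the same order of regions, and it had that order at 80 d as well (10.49, 9.20, 8.81 and 8.06), where the YBX1 test over regions did not pass. The other markers of that list had no named probe. The 5 measured of 10 markers of dividing cells averaged 8.15, 8.46, 8.02 and 8.11 in that order at 120 d, with 8.37 in the hippocampus without the array that stood apart. The part of cell composition in the YBX1 difference was not tested.

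**Figure D2:**
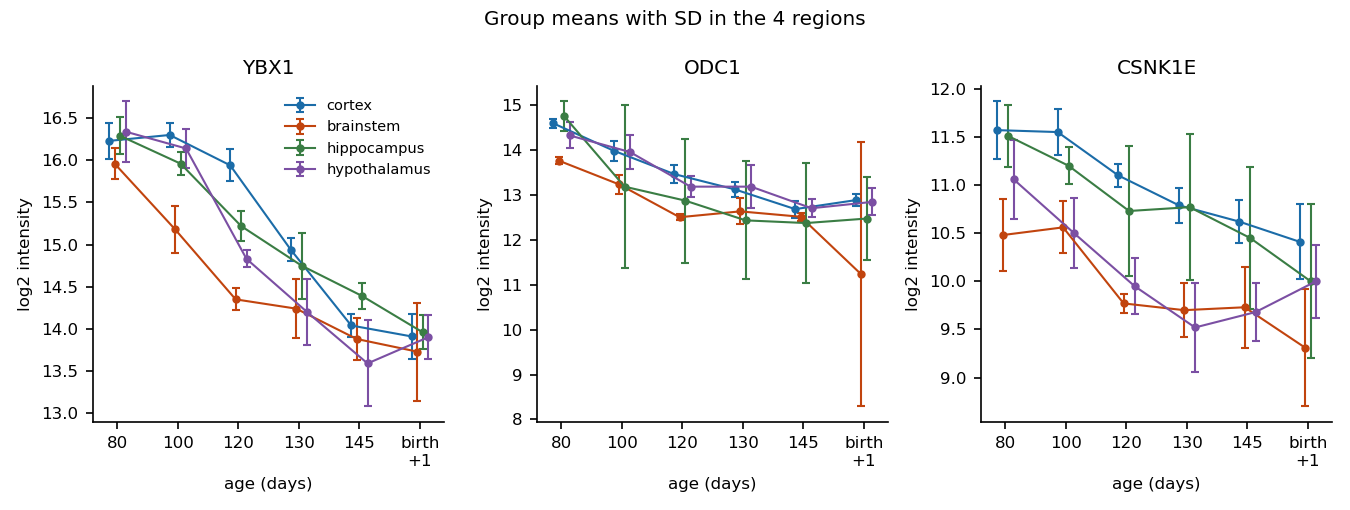
Group means of each gene (log2 intensity, y axis) against age (x axis, days of gestation and 1 d after birth), with all arrays included and error bars of 1 SD (n = 4, or 3 for hippocampus at 100 d). The YBX1 means lie within 0.38 of each other at 80 d and 0.23 after birth and spread at 120 d, from 14.35 in the brainstem to 15.94 in the cortex. Wide bars for ODC1 belong to groups with an array that stood apart.

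The total drop of YBX1 did not differ detectably between regions. The 6 pairwise differences between regions in the change from 80 d to the newborn lay between -0.09 and 0.21 on the log2 scale, each with an SE of 0.28 and adjusted p from 0.723 to 0.994 (limma). The 95% intervals ran from -0.64 to 0.77. Without the 6 arrays the differences lay between -0.38 and 0.50, with intervals from -0.91 to 1.03, so differences of that size were within the error. Over 14 other settings the YBX1 difference for cortex minus brainstem ran from -1.05 to 0.02, and none passed (adjusted p from 0.0626 to 0.985). Taking YBX1, ODC1 and CSNK1E together, 0 of 18 such differences passed, and 0 of 18 had an unadjusted p under 0.05. With the 6 arrays left out 0 of 18 passed as well, but 4 of the 18 intervals lay off 0. These were ODC1 in cortex minus brainstem (-1.3 to -0.01) and brainstem minus hippocampus (0.12 to 1.46), and CSNK1E in brainstem minus hippocampus (0.24 to 1.75) and hippocampus minus hypothalamus (-1.55 to -0.1). Of all genes, 11.2% passed this test between cortex and brainstem, 1.66% between cortex and hippocampus, 2.8% between cortex and hypothalamus, 3.43% between brainstem and hippocampus, 5.89% between brainstem and hypothalamus and 0.839% between hippocampus and hypothalamus.

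Averaged over the 6 ages, YBX1 was highest in the cortex (15.23), followed by the hippocampus (15.09), the hypothalamus (14.83) and the brainstem (14.56). The F test over regions gave an adjusted p of 4.82e-11 (limma), but 84.6% of all genes passed this test. The cortex lay 0.67 above the brainstem (SE 0.08, 1.59-fold, adjusted p = 3.73e-11, where 52.8% of genes passed) and 0.39 above the hypothalamus (SE 0.08, 1.31-fold, adjusted p = 3.13e-05, where 48.7% passed). The hippocampus lay 0.54 above the brainstem (SE 0.08, 1.45-fold, adjusted p = 6.54e-08, where 48% passed). The cortex and hippocampus, neighbours in the order, differed by 0.13 with a 95% interval from -0.03 to 0.29 and an adjusted p of 0.163. Hippocampus and hypothalamus differed by 0.26 (adjusted p = 0.00667, 47% passing) and hypothalamus and brainstem by 0.28 (adjusted p = 0.00337, 45.7% passing). These smaller steps gave adjusted p of 0.172 and 0.163 with slide as a random block, and in the authors' normalized table the brainstem lay 0.06 above the hypothalamus. Each slide held arrays of a single region, so slide and region cannot be told apart beyond that block.

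Both YBX1 probes had lower levels in the newborn in all 4 regions. Over the 93 arrays that had values for both, they correlated at 0.931, or at 0.956 without the 6 arrays, and these arrays share ages and regions. The first probe was lower in the newborn by 4.29-fold in the cortex, 3.74-fold in the brainstem, 3.85-fold in the hippocampus and 5.12-fold in the hypothalamus. The second was lower by 5.81-fold, 5.88-fold, 6.52-fold and 6.23-fold. Within slides that held both ages the newborn-minus-80 d difference of the gene lay between -2.84 and -1.92 in all regions. As a description of a choice already made on this measure, 31 of 12902 genes tested in the cortex had a larger drop than YBX1, 70 of 12777 in the brainstem, 27 of 12686 in the hippocampus and 20 of 12927 in the hypothalamus.

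ODC1 had its highest mean at 80 d in every region. In the cortex, ODC1 levels on single arrays were 14.62, 14.60, 14.70 and 14.46 at 80 d, 14.22, 13.97, 14.03 and 13.70 at 100 d, and 13.53, 13.52, 13.63 and 13.17 at 120 d. From then on they were 13.21, 13.23, 13.15 and 12.88 at 130 d, 12.85, 12.66, 12.79 and 12.43 at 145 d, and 12.98, 12.94, 12.69 and 12.90 1 d after birth. As means ± SD these gave 14.59 ± 0.10, 13.98 ± 0.22, 13.46 ± 0.20, 13.12 ± 0.16, 12.68 ± 0.19 and 12.88 ± 0.13 (n = 4 each). The arrays of 80, 100 and 120 d did not overlap, and the newborn arrays overlapped those of 130 and 145 d. The newborn mean was 3.29-fold below 80 d.

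In the brainstem, ODC1 levels were 13.85, 13.72, 13.67 and 13.81 at 80 d, 13.29, 13.49, 13.20 and 12.95 at 100 d, and 12.61, 12.47, 12.47 and 12.45 at 120 d. For the later ages they were 13.02, 12.50, 12.35 and 12.63 at 130 d, 12.38, 12.57, 12.51 and 12.58 at 145 d, and 12.74, 12.54, 12.82 and 6.83 1 d after birth. On average ± SD the groups were 13.76 ± 0.08, 13.23 ± 0.22, 12.50 ± 0.07, 12.63 ± 0.29, 12.51 ± 0.09 and 11.23 ± 2.94 (n = 4 each). The first 3 ages again formed separate steps, and from 120 d the values lay within a narrow band, except 1 newborn array at 6.83. On that array the 328 spots around the ODC1 probe were also low. Relative to each probe's group median, their median lay 1.79 below that of the whole array. Around these 5 probes no array of the other groups had a local median beyond 0.19 in size. Without the array at 6.83 the newborn mean was 12.70 ± 0.15 (SD, n = 3), and the fold below 80 d was 2.09 instead of 5.78.

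The hippocampus arrays that stood apart were low in ODC1. In the hippocampus, ODC1 levels were 14.44, 14.49, 14.98 and 15.09 at 80 d, 14.11, 14.33 and 11.09 at 100 d, and 13.75, 13.68, 13.24 and 10.82 at 120 d. The remaining hippocampus levels were 12, 13.68, 10.78 and 13.25 at 130 d, 12.18, 13.08, 13.64 and 10.57 at 145 d, and 12.76, 13.34, 11.18 and 12.59 1 d after birth. Averages ± SD came to 14.75 ± 0.33, 13.18 ± 1.81, 12.87 ± 1.38, 12.43 ± 1.31, 12.37 ± 1.34 and 12.47 ± 0.92 with all arrays. The 5 arrays with a correlation under 0.9 lay between 10.57 and 11.18, below every other hippocampus array, and the 2 further arrays at 12 and 12.18 lay below the rest. Without the 6 arrays the means ± SD were 14.75 ± 0.33, 14.22 ± 0.15, 13.56 ± 0.27, 12.98 ± 0.87, 12.97 ± 0.74 and 12.90 ± 0.39 (n = 2 to 4), and the newborn mean was 3.62-fold below 80 d instead of 4.88-fold.

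In the hypothalamus, ODC1 levels were 14.66, 14.22, 13.98 and 14.42 at 80 d, 14.39, 14.10, 13.80 and 13.52 at 100 d, and 13.53, 13.10, 13.01 and 13.07 at 120 d. After that they were 13.66, 13.05, 13.46 and 12.57 at 130 d, 12.42, 12.87, 12.77 and 12.74 at 145 d, and 13.16, 12.92, 12.43 and 12.85 1 d after birth. The means ± SD were 14.32 ± 0.29, 13.95 ± 0.37, 13.18 ± 0.24, 13.18 ± 0.48, 12.70 ± 0.20 and 12.84 ± 0.30 (n = 4 each). Each age overlapped the next throughout, and the newborn arrays lay below all 80 d arrays, by 2.79-fold in the means.

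**Figure D3:**
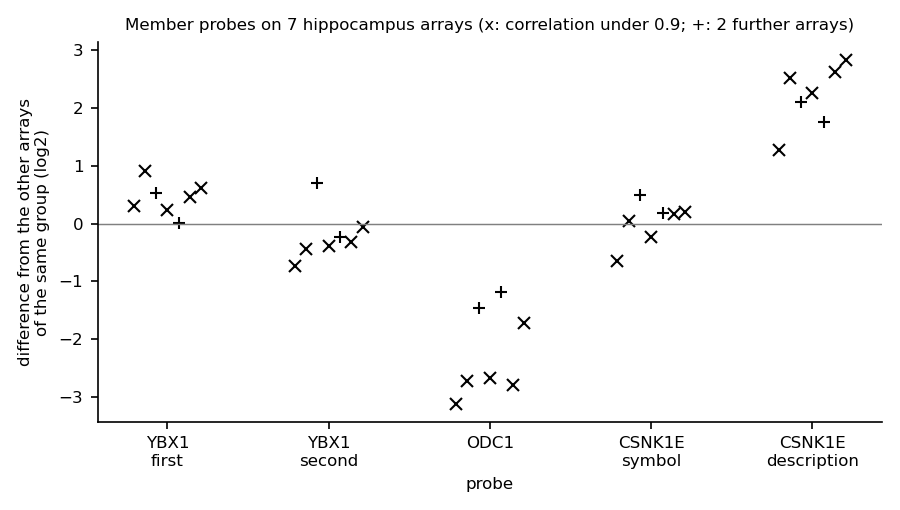
Difference of each member probe (log2, y axis) on 7 hippocampus arrays from the mean of the other arrays of the same age, by probe (x axis). Crosses are the 5 arrays with a correlation under 0.9 and plus signs the 2 further ones. ODC1 is lower on all 7 arrays (-3.13 to -1.18), the CSNK1E description probe higher on all 7 (1.28 to 2.84), the first YBX1 probe higher on all 7 (0.01 to 0.91), and the second YBX1 probe and the CSNK1E symbol probe lie on both sides of 0.

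On the 5 hippocampus arrays with a low correlation, other features moved with ODC1. The mean of the 5 proliferation markers was lower by 0.74 to 1.49 than on the other arrays of their groups, on all 5 arrays. The mean of 7 hypothalamus markers was higher by 0.50 to 0.91 and that of 4 pituitary markers by 0.14 to 0.48, also on all 5. The hypothalamus markers include NPY and SST, which averaged higher in the hippocampus than in the hypothalamus, and values of single markers on these arrays are not given. The oligodendrocyte mean was lower on 4 of the 5 (differences from -1.78 to 0.35), while the means of 2 choroid plexus markers (-0.91 to 1.14) and 2 erythroid markers (-0.52 to 1.23) were higher on 4. All 5 arrays shared 1 slide of 8 arrays. The part of the slide, RNA quality or tissue composition in the low ODC1 values was not tested.

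Region tests of ODC1 turned on these arrays. With all arrays the F test over the mean of the 6 ages gave an adjusted p of 0.00945 (limma), in the test passed by 84.6% of genes, and 0.27 with slide as a random block. Leaving out the 6 arrays gave 1.01e-08, in a fit for which the share of all genes passing is not given. With all arrays the region means over ages were 13.45 in the cortex, 13.36 in the hypothalamus, 13.01 in the hippocampus and 12.64 in the brainstem. Once the 6 arrays were left out the hippocampus came first at 13.56, followed by the cortex at 13.45, the hypothalamus at 13.36 and the brainstem at 12.89. The brainstem was lowest in either case.

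The cortex lay 0.81 above the brainstem (SE 0.25, 1.75-fold, adjusted p = 0.00461) with all arrays and 0.56 above it (adjusted p = 1.75e-07) without the 6. With slide as a random block the adjusted p was 0.134. The hypothalamus lay 0.72 above the brainstem (SE 0.25, 1.65-fold, adjusted p = 0.0146), or 0.47 without the 6 arrays (adjusted p = 1.08e-05), and its adjusted p was 0.214 with slide as a random block. The hippocampus lay 0.37 above the brainstem (95% interval of brainstem minus hippocampus -0.87 to 0.14, adjusted p = 0.231), and 0.67 above it without the 6 arrays (adjusted p = 3.3e-08). The difference between cortex and hypothalamus was 0.09 with an interval from -0.41 to 0.59.

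At single ages ODC1 passed no F test over regions with all arrays. The adjusted p was 0.0838 in the newborn (unadjusted 0.0286) and from 0.563 to 0.959 at the other ages (limma). The newborn cortex lay 1.64 above the newborn brainstem (SE 0.61, adjusted p = 0.0446, where 20.5% of genes passed), but only 0.18 above it without the 6 arrays (adjusted p = 0.644). With the 6 arrays left out the F test passed at 80 d (0.000835), 100 d (0.00347) and 120 d (0.000419). The share of all genes passing these tests without the 6 arrays is not given either. At 80 d every brainstem array (13.67 to 13.85) lay below every array of the other 3 regions, the lowest of which was 13.98. The region-by-age test gave an adjusted p of 1 with all arrays and 0.456 without the 6.

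The newborn-minus-80 d difference of ODC1 within single slides lay between -1.75 and -1.04, except on the brainstem slide with the newborn array at 6.83, where it was -3.99. In the cortex 114 of 12902 genes had a larger drop than ODC1, in the brainstem 38, in the hippocampus 31 and in the hypothalamus 179, again as a description, and the brainstem and hippocampus drops include the low arrays.

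CSNK1E was also highest at 80 or 100 d in every region, and with all arrays its newborn means were 2.08-fold to 2.84-fold below those of 80 d. In the cortex, CSNK1E levels on single arrays were 11.69, 11.53, 11.18 and 11.88 at 80 d, 11.65, 11.31, 11.39 and 11.83 at 100 d, and 11.18, 11.09, 10.93 and 11.18 at 120 d. The later cortex levels were 10.78, 10.82, 10.56 and 10.99 at 130 d, 10.70, 10.55, 10.87 and 10.35 at 145 d, and 10.59, 9.97, 10.86 and 10.22 1 d after birth. Group means ± SD were 11.57 ± 0.30, 11.55 ± 0.24, 11.10 ± 0.12, 10.79 ± 0.18, 10.62 ± 0.22 and 10.41 ± 0.39 (n = 4 each). The 80 and 100 d arrays overlapped, all 120 d arrays lay below those of 100 d, and from 120 d on each age overlapped the next. All newborn arrays lay below all 80 d arrays. The newborn mean was 2.24-fold below 80 d.

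In the brainstem, CSNK1E levels were 10.91, 10.65, 10.13 and 10.23 at 80 d, 10.59, 10.75, 10.75 and 10.17 at 100 d, and 9.71, 9.70, 9.75 and 9.91 at 120 d. The later brainstem levels were 10.06, 9.38, 9.73 and 9.64 at 130 d, 9.27, 9.65, 10.29 and 9.71 at 145 d, and 9.79, 9.24, 9.74 and 8.48 1 d after birth. Their means ± SD were 10.48 ± 0.37, 10.56 ± 0.27, 9.77 ± 0.10, 9.70 ± 0.28, 9.73 ± 0.42 and 9.31 ± 0.61 (n = 4 each). The 80 and 100 d arrays overlapped and lay above all 120 d arrays, after which the ages overlapped. The lowest value, 8.48, was on the array with the low ODC1 spot. By the same measure, the median of 338 spots around the symbol probe was 1.36 below that of the whole array. Without it the newborn mean was 9.59 ± 0.31 (SD, n = 3) and the fold below 80 d was 1.85 instead of 2.24.

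In the hippocampus, CSNK1E levels were 11.28, 11.21, 11.85 and 11.70 at 80 d, 11.04, 11.15 and 11.41 at 100 d, and 10.74, 10.27, 10.24 and 11.69 at 120 d. Later in the hippocampus they were 11.48, 10.62, 11.21 and 9.76 at 130 d, 10.84, 9.60, 10.12 and 11.26 at 145 d, and 9.32, 9.95, 11.14 and 9.61 1 d after birth. As means ± SD these gave 11.51 ± 0.32, 11.20 ± 0.19, 10.73 ± 0.68, 10.77 ± 0.76, 10.45 ± 0.74 and 10 ± 0.80 with all arrays. The 5 arrays that stood apart lay between 11.14 and 11.69, the highest of their groups except at 130 d, where replicate 1 was higher at 11.48. Without the 6 arrays the means ± SD were 11.51 ± 0.32, 11.09 ± 0.08, 10.41 ± 0.28, 10.62 ± 0.86, 10.19 ± 0.62 and 9.63 ± 0.31 (n = 2 to 4), and the newborn mean was 3.69-fold below 80 d instead of 2.84-fold. The excess was on the description probe, as the plot of 7 hippocampus arrays shows, while the symbol probe differed by -0.65 to 0.49 there.

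In the hypothalamus, CSNK1E levels were 11.61, 11.01, 10.62 and 11.01 at 80 d, 10.55, 10.84, 10.62 and 9.98 at 100 d, and 10.29, 9.81, 9.64 and 10.08 at 120 d. At later ages there they were 10.01, 9.58, 9.61 and 8.90 at 130 d, 9.78, 10.01, 9.28 and 9.65 at 145 d, and 10.41, 9.73, 9.64 and 10.23 1 d after birth. On average ± SD the groups were 11.06 ± 0.41, 10.50 ± 0.36, 9.95 ± 0.29, 9.52 ± 0.46, 9.68 ± 0.30 and 10 ± 0.38 (n = 4 each). The lowest mean was at 130 d, and the 145 d and newborn arrays overlapped those of 130 d. All newborn arrays lay below all 80 d arrays, by 2.08-fold in the means.

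CSNK1E was higher in the cortex and hippocampus than in the hypothalamus and brainstem. Its mean over ages was 11 in the cortex, 10.78 in the hippocampus, 10.12 in the hypothalamus and 9.93 in the brainstem. The F test over regions gave an adjusted p of 5.39e-13 (limma), again in the test passed by 84.6% of genes. By the symbol probe alone it was 1.13e-17, by the description probe alone 8.99e-07 and with slide as a random block 1.43e-05.

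The cortex lay 1.08 above the brainstem (SE 0.12, 2.11-fold, adjusted p = 8.63e-12) and 0.88 above the hypothalamus (SE 0.12, 1.85-fold, adjusted p = 7.36e-09). The hippocampus lay 0.85 above the brainstem (SE 0.13, 1.80-fold, adjusted p = 3.11e-08) and 0.66 above the hypothalamus (SE 0.13, 1.58-fold, adjusted p = 1.61e-05). Leaving out the 6 arrays, these 2 hippocampus differences were 0.60 and 0.45. The neighbours cortex and hippocampus differed by 0.23 (95% interval -0.02 to 0.48, adjusted p = 0.123, where 52% of genes passed), or by 0.43 without the 6 arrays (adjusted p = 0.000947). Hypothalamus and brainstem differed by 0.19 (interval of brainstem minus hypothalamus -0.44 to 0.05, adjusted p = 0.195).

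With all arrays the regions differed at each age. The F test over regions gave CSNK1E adjusted p of 0.0109 at 80 d, 0.013 at 100 d, 0.000744 at 120 d, 0.000187 at 130 d, 0.013 at 145 d and 0.0267 in the newborn (limma). By the description probe alone only 130 d passed (0.00757). The newborn call was lost without brainstem replicate 4 (0.213), without cortex replicate 1 (0.0589) or 3 (0.0821) and without brainstem replicate 2 (0.0606), and the 80 d call without brainstem replicate 3 (0.061). With slide as a random block the newborn call was also lost (0.0747). It passed without the 6 arrays (0.03), which include brainstem replicate 4. The region-by-age test gave 0.994, or 0.223 without the 6 arrays, so a difference in timing was not detected for CSNK1E.

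At 120 d the 4 brainstem arrays, from 9.70 to 9.91, and the hypothalamus arrays, from 9.64 to 10.29, lay below all cortex arrays, from 10.93 to 11.18. At 80 d the cortex lay 1.09 above the brainstem (SE 0.30, 2.13-fold, adjusted p = 0.00668, where 14.6% of genes passed), and the hippocampus 1.03 above it (SE 0.30, 2.04-fold, adjusted p = 0.0149, where 11.8% passed). By the description probe these gave 0.188 and 0.179, and the call for the hippocampus was also lost with the scanner's processed signal (0.067) and in 4 of 95 cases where 1 array was left out. At 145 d the cortex lay 0.88 above the brainstem (adjusted p = 0.0256, 21.7% passing) and 0.93 above the hypothalamus (adjusted p = 0.0212, 18.1% passing), and leaving out 1 array lost these calls in 5 and 3 of 95 cases. Their adjusted p was 0.05 and 0.069 with slide as a random block and 0.581 and 0.33 by the description probe. In the newborn the difference was also 1.09 (adjusted p = 0.00533, in the comparison with 20.5% passing), or 0.81 without the 6 arrays (adjusted p = 0.0172). This call was lost by the description probe (0.361) and without brainstem replicate 4 alone (0.0657).

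The CSNK1E probes followed each other less closely than those of YBX1. Over 95 arrays they correlated at 0.70, and at 0.855 without the 6 arrays. In the hippocampus the correlation was 0.434 with all arrays and 0.949 without the 8 arrays named above. In the newborn the symbol probe was lower than at 80 d by 1.98-fold in the cortex, 2.41-fold in the brainstem, 3.11-fold in the hippocampus and 2.03-fold in the hypothalamus. The description probe was lower by 2.53-fold, 2.08-fold, 2.59-fold and 2.13-fold. Its newborn and 80 d arrays overlapped in the hippocampus with all arrays, and without the 6 arrays they did not and the fold there was 4.24. Within single slides the newborn-minus-80 d difference of the gene lay between -1.92 and -0.68. More genes had a larger drop than CSNK1E than was the case for YBX1 or ODC1, with 407 in the cortex, 646 in the brainstem, 210 in the hippocampus and 493 in the hypothalamus.

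**Figure D4:**
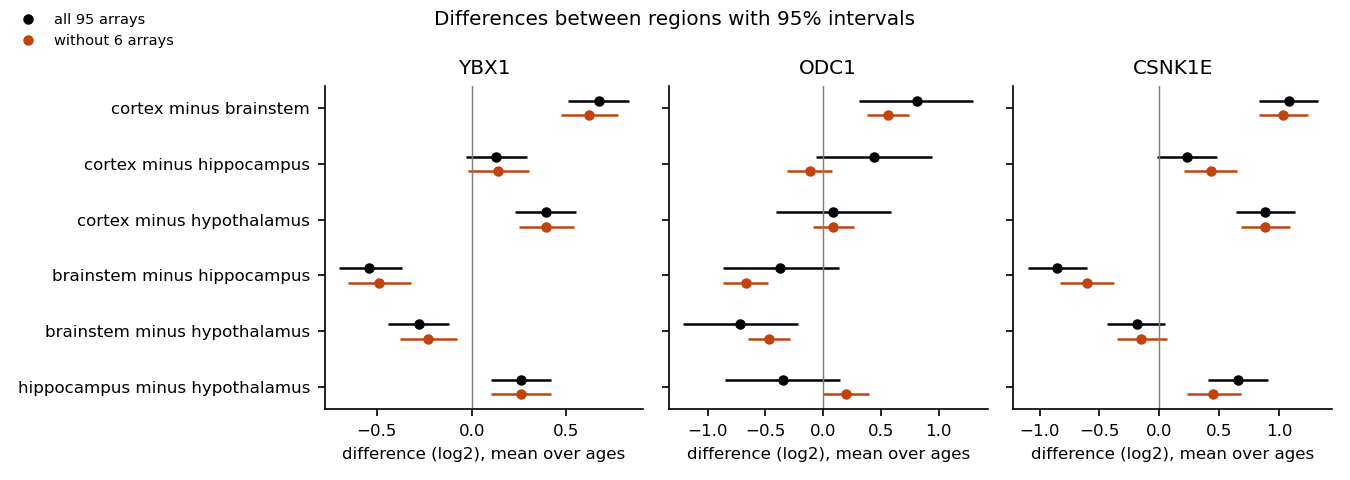
Differences between pairs of regions in the level averaged over the 6 ages (log2, x axis) for each gene, with 95% intervals from the limma fit, for all 95 arrays (black) and without the 6 arrays (orange). Intervals for the cortex minus brainstem lie above 0 in all 3 genes, while the ODC1 interval for brainstem minus hippocampus leaves 0 only without the 6 arrays.

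The 3 genes shared much of their pattern over the 24 group means of region and age. Pearson's r was 0.843 between YBX1 and ODC1, 0.828 between YBX1 and CSNK1E and 0.736 between ODC1 and CSNK1E, and without the 6 arrays 0.915, 0.84 and 0.813. These values are descriptions, since the genes were chosen for a shared course and the group means share arrays and ages. Among 923 genes with a symbol, the 5 most like YBX1 were LMNB1 (0.916), a nuclear lamina protein, IGFBP5 (0.868), CDK1 (0.849), the mitotic kinase, and the other 2 genes described here. The genes most like ODC1 were RASSF1 (0.907), HYAL2 (0.904), LMNB1 (0.901), the ribosomal protein gene RPL13A (0.886) and CDK1 (0.858). Among those most like CSNK1E were TGFB2 (0.879), the poly(A)-binding protein gene PABPC1 (0.852), MYC (0.834) and ACACA (0.832). Without the 6 arrays LMNB1 stayed first for YBX1, ODC1 was second (0.915), and YBX1 was first for ODC1, while PABPC1 was first for CSNK1E (0.904).

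Markers of dividing cells were lower toward birth as well. The mean of AURKA, CCNA2, CDK1, PCNA and TYMS was between 8.45 and 8.96 at 80 d and between 7.42 and 7.64 in the newborn over the 4 regions, with all newborn arrays below all 80 d arrays in each. The mean of 4 measured of 7 astrocyte markers was higher in the newborn, between 12.38 and 13.23, than at 80 d, between 10.75 and 11.87. Their part in the levels of the 3 genes was not tested.

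Partner genes of the 3 pathways were followed in 4 lists with 172 members in all. A named probe that could be tested existed for 35. Over all 4 lists, 20 genes passed the F test over ages in the cortex (5 higher and 15 lower in the newborn than at 80 d), 21 in the brainstem (4 higher, 17 lower), 1 in the hippocampus (higher) and 8 in the hypothalamus (2 higher, 6 lower). Of all genes tested, 45.7% passed in the cortex (21.2% higher, 24.6% lower), 40.5% in the brainstem (19.9%, 20.7%), 3.05% in the hippocampus (1.49%, 1.56%) and 16% in the hypothalamus (7.16%, 8.87%). The median newborn-minus-80 d difference of the listed genes was -0.11, -0.36, -0.06 and -0.13 in these regions, beside -0.03, 0.02, -0.02 and -0.03 over all genes. When the 6 arrays were left out 25 listed genes passed in the brainstem, beside 53% of all genes, and 3 in the hippocampus, beside 5.81%.

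Of 40 genes for Y-box partners and mRNA binding, 4 were measured, and their median difference was -0.88 in the cortex, -1.11 in the brainstem, -0.75 in the hippocampus and -0.44 in the hypothalamus. All 4 passed in the cortex, 3 in the brainstem, 0 in the hippocampus and 3 in the hypothalamus, each lower in the newborn. For the listed genes a p in brackets is the adjusted p of the newborn-minus-80 d difference itself (limma), unless the F test over ages is named. Only the largest rises and falls of each list and region are named, so a gene may also have passed in regions not given. RACK1, a scaffold protein of the ribosome, fell by 1.35 in the cortex (SE 0.11, adjusted p = 4.66e-09) and by 1.01 in the brainstem (2.53e-05). Its F test did not pass in the hippocampus or hypothalamus. EEF1A1, a translation elongation factor, fell by 0.96 in the cortex (adjusted p = 0.000104) and by 1.28 in the hypothalamus (0.000188). PABPC1 fell by 1.37 in the brainstem (1.29e-06), and in the hypothalamus, where its F test passed (0.00232), the newborn lay 0.49 below 80 d (0.0694 for that difference). RPS6, a ribosomal protein gene, fell by 1.22 in the brainstem (0.00439), with an F test adjusted p of 0.0446, and without the 6 arrays these were 0.78 and 0.000354. The hippocampus had 0 calls in this list by limma, although PABPC1 had the largest difference there, -2.0 with an SE of 0.54 (0.0329 for that difference, F test adjusted p = 0.185, and 0.00193 for the F test without the 6 arrays).

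The polyamine list had 2 measured genes of 28. ARG2, an arginase that makes ornithine, the substrate of ODC1, fell by 0.40 in the cortex (SE 0.11, adjusted p = 0.00455) and by 0.62 in the brainstem (SE 0.18, adjusted p = 0.00732). It did not pass in the other 2 regions. DOHH, which takes part in making hypusine from spermidine on a translation factor, passed the F test in no region with all arrays. In the brainstem its difference was 0.42 (0.0158), and its F test adjusted p was 0.0555, or 0.0488 without the 6 arrays.

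Of 59 genes for casein kinase 1, the clock and Wnt signaling, 9 were measured. DBP, a clock output transcription factor, rose in the cortex by 2.16 (from 7.67 to 9.83, SE 0.12, adjusted p = 1.21e-11), in the hippocampus by 1.28 (0.00482) and in the hypothalamus by 1.22 (1.69e-05). The hippocampus F test of DBP (adjusted p = 0.0232) was lost without any one 80 d array of that region and with trended, robust variances. In the brainstem its difference was 0.83 (0.0536, with 0.0799 for the F test), and 1.39 without the 6 arrays (5.63e-06 for the F test). The clock gene PER3 rose by 1.11 in the brainstem (7.82e-05). CSNK1D, the paralog of CSNK1E, fell by 0.36 in the brainstem (SE 0.12, adjusted p = 0.018), and in the cortex its level was 8.97 at 80 d and 9.04 in the newborn. Its difference was -0.35 in the hippocampus (SE 0.33, adjusted p = 0.632) and -0.26 in the hypothalamus (SE 0.15, adjusted p = 0.244). The F test of CSNK1D passed in the brainstem only. The Wnt receptor FZD3 fell by 0.41 in the cortex (0.000365), and FZD2 fell by 0.88 in the brainstem (0.0155).

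**Figure D5:**
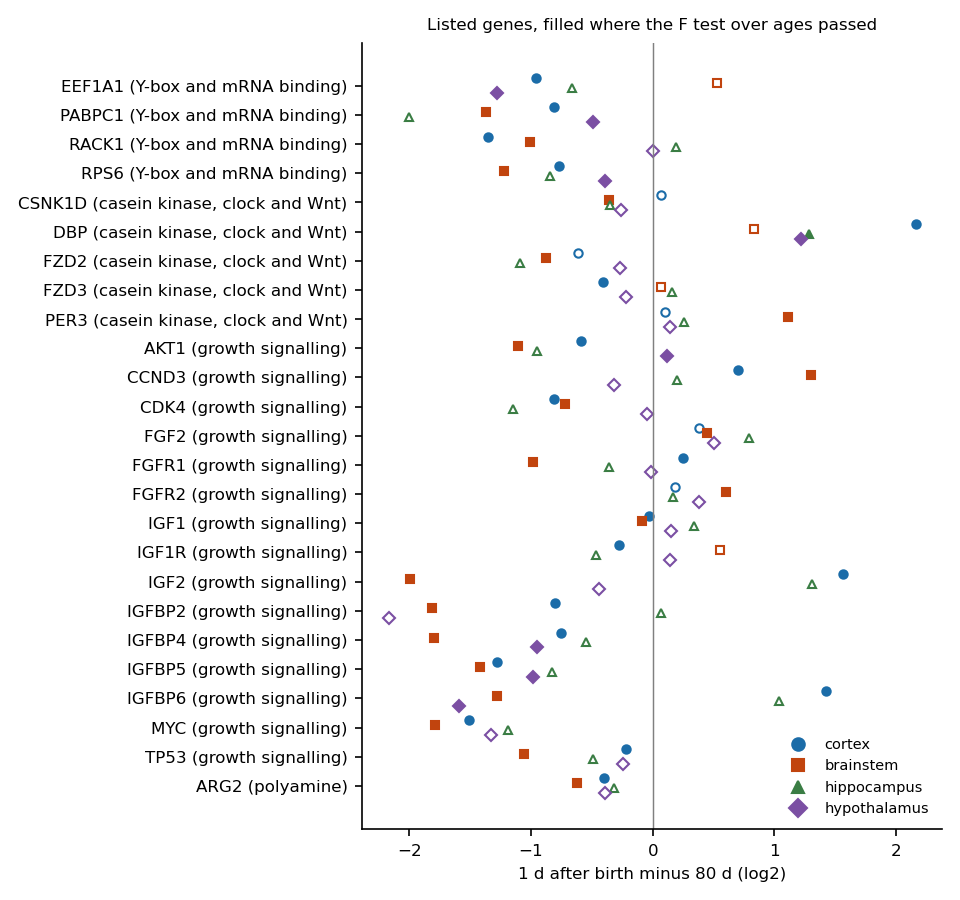
Newborn-minus-80 d difference (log2, x axis) of the listed genes that passed the F test over ages in at least 1 region (y axis, list in brackets), by region. Filled symbols mark regions where the limma F test passed. Filled symbols of the Y-box list lie left of 0, its open symbols include EEF1A1 at 0.53 in the brainstem and RACK1 at 0.19 in the hippocampus, and IGF2 and IGFBP6 lie on opposite sides of 0 in the cortex and the brainstem.

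Among 45 growth signaling genes, 20 were measured. MYC, a transcription factor that activates ODC1, fell by 1.51 in the cortex (from 12.03 to 10.51, adjusted p = 6.3e-08) and by 1.79 in the brainstem (9.91e-10). IGFBP5 fell by 1.28 in the cortex (1.55e-07), by 1.42 in the brainstem (1.62e-08) and by 0.98 in the hypothalamus (0.00118). The F test of MYC did not pass in the hippocampus or hypothalamus, nor that of IGFBP5 in the hippocampus. In the brainstem IGFBP2 fell by 1.81 (0.00112), and CCND3, a cyclin of the G1 phase, rose by 1.3 (1.56e-05), as did the receptor FGFR2 by 0.60 (0.00579), or by 0.36 without the 6 arrays. AKT1 passed the F test in the hypothalamus (0.0234), with levels of 9.48 at 80 d and 9.60 in the newborn.

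Some of these genes changed in different directions in different regions. IGF2, the fetal insulin-like growth factor, rose by 1.56 in the cortex (adjusted p = 0.00759) and fell by 1.99 in the brainstem (0.00251), and the difference between these changes was 3.55 (adjusted p = 0.00111). Its binding protein IGFBP6 rose by 1.42 in the cortex (6.49e-06) and fell by 1.59 in the hypothalamus (0.00688), with a difference of 3.01 (adjusted p = 0.000323). The brainstem change of IGFBP6 was -1.28, and its difference from the cortex was 2.71 (adjusted p = 0.000461). Between cortex and brainstem, 11.2% of all genes passed the test of such a difference, and between cortex and hypothalamus 2.8%. YBX1, ODC1 and CSNK1E were lower in the newborn in each of these regions.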

How the data were processed

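Total RNA of 4 brain regions was labeled with Cy3 and hybridized to one-color Agilent sheep arrays, 95 arrays in all. The deposited values were single-spot intensity readings that the authors extracted with Feature Extraction (version 10.1.1.1 in the file headers), with no normalization. A deposited table of log2 values, normalized by the authors, was used only as an alternative. Its scale and direction matched the scanner values, with each of its 95 columns closest to its own array and medians from 9.04 to 9.1. The genome build is not given in the sources used here.

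With limma 3.58.1 in R 4.3.3, mean and background signals were corrected by normexp (offset 50) and quantile normalized over all arrays. Outlier spots were left out, spots of a probe averaged, and a probe kept in a region if, on 4 or more of its arrays, it reached 1.1 times the level below which 95% of the 77 negative control spots lay. The probes of a gene were averaged. Names came from the files and from RefSeq's gene table for ARS-UI_Ramb_v3.0 (1560 of 15008 probes had a symbol). A model of 24 group means tested 13345 genes over all 95 arrays with F tests and pairwise contrasts, and the listed genes were tested within each region. P-values were adjusted by Benjamini-Hochberg over all genes, with a threshold of 0.05.

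YBX1, ODC1 and CSNK1E and all lists were chosen with earlier results of these data known. Named were these 3 genes, the 2 largest rises and the 2 largest falls of each list and region among genes that passed, and the 5 genes most like each member. Of these, 1 gene is not reported here. Genes whose newborn-minus-80 d difference went opposite ways in different regions were added after their values were seen, as were DOHH and the CSNK1D values outside the brainstem. So were the brainstem values of MYC, IGFBP5 and RACK1. Same-numbered arrays of an age deviated together only weakly (56 of 141 pairs correlated over 0.1, against 91 of 423 pairs with different numbers), so the replicate number served only in an alternative. Other alternatives changed the offset, the signal, the normalization, the filter, the probes, the slide (as a random block), the variance model and the arrays. The fits were tested on simulated data. Figures and tables were made with Python 3.11.15, pandas 2.3.3 and matplotlib 3.10.9. The number of arrays limits the precision.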

Additional observations from a re-analysis of the deposited data

Results flagged for a closer look

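The ODC1 level of 6.83 on the brainstem array 1 d after birth replicate 4 lay far from the other 3 arrays of its group (12.54 to 12.82), with a gap of 0.953 of the group's range. At 120 d in the brainstem, replicate 1 at 12.61 stood off in the same way (0.875 of the range), although the other 3 arrays lay between 12.45 and 12.47. Of 69 groups of 4 arrays tested, 2 met this criterion, and chance alone gives about 1 in 20.

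The course of YBX1 with age differed between regions (region-by-age F test of limma, adjusted p = 0.000184). Among the listed genes, the change from 80 d to 1 d after birth differed in direction between regions for IGF2 in the cortex and brainstem (adjusted p = 0.00111), for IGFBP6 in the cortex and brainstem (0.000461) and in the cortex and hypothalamus (0.000323). For FGFR1, a fibroblast growth factor receptor, the cortex change of 0.25 did not itself pass (limma adjusted p = 0.094). Its brainstem change was -0.98 (adjusted p = 1.07e-05). The difference of 1.23 between these FGFR1 changes had an adjusted p of 4.7e-06. AKT1 differed by 1.24 between the hypothalamus (0.12, adjusted p = 0.759 for that change) and the brainstem (-1.11), with an adjusted p of 0.0239 (limma). Between the hypothalamus and the cortex (-0.59) AKT1 differed by 0.71, which did not pass (adjusted p = 0.408).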

How the results depend on the processing

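Values below are log2 differences. For a test over regions the value is the largest difference between a pair of regions. Of 14170 values from 14 other settings and 95 fits that each left out 1 array, 14005 stayed on their side of the threshold or, with no test, moved by less than the replicate spread (counts of genes: by no more than 1.5 times). Among these, 131 differences turned direction without passing the threshold in either fit, such as ODC1 in the cortex minus the hippocampus over ages without the 6 arrays.

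With the scanner's processed signal, the YBX1 difference over regions at 145 d was 0.80 (adjusted p = 0.0689), its newborn-minus-80 d difference was -2.73 in the cortex, -1.69 in the brainstem and -1.90 in the hippocampus, and that of ODC1 was -1.92 in the cortex. In the authors' table YBX1 in the brainstem minus the hypothalamus was 0.06. Quantile normalization within each region moved the median of all genes by 0.88, 0.81 and 0.72 for the cortex against the brainstem, hippocampus and hypothalamus. It gave YBX1 over regions 0.99 at 80 d and 0.91 in the newborn, cortex minus hippocampus 0.81 at 80 d, 0.51 at 145 d and 0.82 in the newborn, and cortex minus hypothalamus 0.82 at 80 d, and ODC1 over regions 1.73 at 120 d and 2.47 in the newborn. Relative to that shift, cortex minus brainstem was 0.51 for YBX1, 0.70 for ODC1 and 1.09 for CSNK1E.

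By the brightest or the first probe, YBX1 differed by -2.10 in the cortex and -1.94 in the hippocampus between newborn and 80 d, and by the second probe by -2.54 and -2.71. By the second probe YBX1 over regions at 145 d was 0.45 (0.379). By the brightest or the description probe CSNK1E over regions was 0.94 at 80 d, 1.15 at 100 d, 1.21 at 120 d, 0.93 at 145 d and 0.62 in the newborn, past the threshold at none of these ages.

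With slide as a random block ODC1 over regions and ages was 0.81 (0.27), CSNK1E over regions in the newborn 1.09 (0.0747). In the hippocampus, 1 listed gene, DBP, passed the test over ages. It was 2 with slide as a block, 2 with the replicate block, 2 with the processed signal and 0 with trended, robust variances. Same-numbered arrays of an age had a median correlation of 0.0572 in their deviations, and different-numbered ones -0.0452. The replicate block changed no other call.

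Without the 6 arrays ODC1 over regions passed at 80 d (0.99), 100 d (0.99) and 120 d (1.06), its brainstem newborn-minus-80 d difference was -1.06, and 3 listed hippocampus genes passed. Without the 8 arrays these values were 0.99, 0.99, 1.06, -1.06 and 4 (6.01% of all genes passed in the hippocampus, against 5.81% without the 6), and ODC1 also passed at 130 d (0.84) and 145 d (0.85). Under both settings ODC1 turned direction, and passed the threshold without the 8: cortex minus hippocampus was -0.11 without the 6 and -0.26 without the 8 over ages, and -0.28 and -0.68 at 145 d. Hippocampus minus hypothalamus was 0.20 and 0.35 over ages and 0.27 and 0.66 at 145 d, and brainstem minus hippocampus -0.45 and -0.85 at 145 d. Both settings were chosen after seeing the data.

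Leaving out 1 array at a time, YBX1 over regions at 145 d ran from 0.61 to 0.98 (lost without hypothalamus replicate 1), ODC1 over regions in the newborn from 0.41 to 2.17 (passing without brainstem replicate 1, 2 or 3), ODC1 in the brainstem from -3.06 to -1.06 (the latter without newborn replicate 4), CSNK1E over regions at 80 d from 0.98 to 1.24 and in the newborn from 0.81 to 1.25, and the listed hippocampus genes from 0 to 2 (0 without any one 80 d array, 2 without 145 d replicate 2). The causes were not tested. The number of arrays limits what could be detected.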
